A study of Homo sapiens with 6 samples.

Results

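The insulin-like growth factor (IGF) receptors, their adaptors and the IGF binding proteins were examined in H1 cells, an established line of human embryonic stem cells, on 2 laminin coatings. The 10 genes were chosen by name: the receptor genes IGF1R, IGF2R and INSR, the adaptor genes IRS1 and IRS2, and the binding protein genes IGFBP2, IGFBP3, IGFBP4, IGFBP5 and IGFBP6. Earlier results of these data were known when the genes were chosen. Each symbol matched 1 of the 60499 gene identifiers in the deposited tables, and all 10 genes were among the 17608 that passed the filter on low counts. Cells of both groups were H1 cells grown in the same medium, Nutristem, which was renewed every day for 4 days. The LN-521 group had 3 wells coated with laminin-521 alone, and the LN-521+LN-221 group had 3 wells coated with laminin-521 together with laminin-221. Laminins are basement membrane proteins to which cells attach. All 6 libraries came from 1 cell line, so the wells are replicates of a culture and not of a genotype, and neither group lacked laminin-521. The series title concerns cardiovascular progenitors, while the labels call these 6 samples embryonic stem cells.

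Insulin and the IGFs act through receptor tyrosine kinases at the cell surface. The IGF1 receptor and the insulin receptor phosphorylate insulin receptor substrate proteins, which recruit phosphoinositide 3-kinase and so activate AKT and mTOR. Secreted binding proteins hold most IGF outside the cell, and proteases release it. In human pluripotent stem cells, signalling through IGF and insulin receptors is known for its part in survival and self-renewal, and defined media commonly contain insulin.

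Of the 10 genes, 1 changed between the coatings: IGFBP2 was 14.1% lower on LN-521+LN-221. None was higher, and 9 did not pass the test. The test was the quasi-likelihood test of edgeR with Benjamini-Hochberg adjustment over all genes tested, at a threshold of 0.05, and a positive fold change means a higher level with laminin-221 added. By the same rule 446 of 17608 genes changed, or 2.53%, of which 246 (1.40%) were higher and 200 (1.14%) were lower. The 10 genes had a median log2 fold change of 0.027, against -0.001 over all genes tested, with 6 values above 0 and 4 below. An unadjusted p under 0.05 was obtained for 4 of the 10 (IGF1R, IGF2R, IGFBP2 and IGFBP6), against 14.5% of all genes.

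Libraries held between 20606450 and 26836686 counts, and the common biological coefficient of variation was 7.03%. Every pair of libraries differed by more than sampling noise, so no library was a copy of another. That does not show that the wells were independent, and each library was counted as a replicate by its label. The deposited sample sheet lists 1 sequencing batch. Nothing in the labels says that the wells came from separate passages, so the p-values measure the spread between wells. The 9 markers of undifferentiated cells were all at 1 TPM or more in every library, and their summed level ranged from 2966 to 3344 TPM with LN-521 and from 2880 to 3109 TPM with LN-521+LN-221. TPM is a transcript level corrected for transcript length. By edgeR's adjusted p, 3 of these markers were lower on LN-521+LN-221: NANOG had a log2 fold change of -0.73, TDGF1 of -0.65 and POU5F1 of -0.36. LIN28A was higher, by 0.23. Of all genes, 1.14% were lower and 1.40% higher by this rule. NANOG, TDGF1 and POU5F1 have pseudogenes that could share their reads, so their values are less certain. In bulk RNA, fewer cells of a type and less RNA per cell cannot be told apart. The part of these shifts in the results below was not tested.

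The levels of the 10 genes spanned more than 2 orders of magnitude per transcript length. IGFBP2, the most abundant of them, was at 935 TPM ± 72.5 (SD, n = 6 libraries) and ranked between 104 and 126 among all genes by TPM. IGF1R followed at 21.4 TPM ± 4.20, INSR at 16.6 ± 1.31 and IGF2R at 14.3 ± 1.69. The remaining binding proteins were at 10.5 TPM (IGFBP3), 9.19 (IGFBP4), 5.88 (IGFBP6) and 3.60 (IGFBP5), and the adaptors were lowest, at 3.20 TPM (IRS1) and 2.93 (IRS2). Between neighbours in this order, the ranges over the 6 libraries were separate for 2 pairs, IGFBP2 above IGF1R (43.6-fold) and IGFBP4 above IGFBP6 (1.56-fold). Every other pair of neighbours overlapped.

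**Figure D1:**
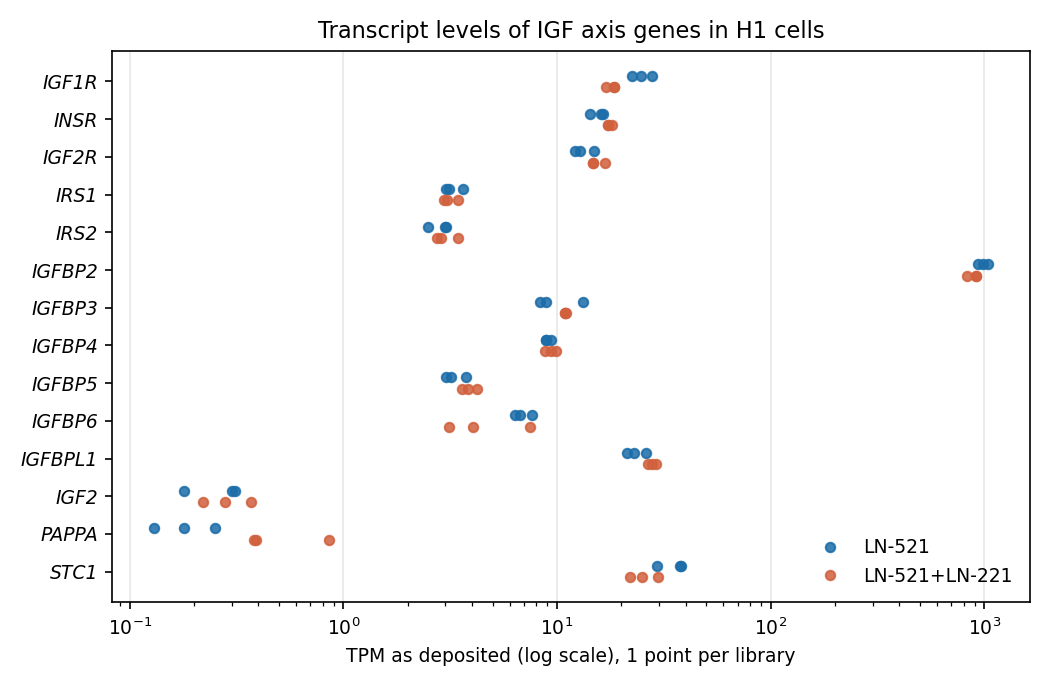
Deposited TPM of the 10 genes and of 4 other genes of the IGF axis, on a log scale, with 1 point per library, blue for LN-521 and orange for LN-521+LN-221. IGFBP2 lies between 825 and 1041 TPM in every library, while the other 9 genes lie between 2.48 and 27.7 TPM.

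IGF1R encodes the receptor tyrosine kinase that binds IGF1 and IGF2 (chr15:98648539-98964530, plus strand, GRCh38). Its CPM, the count scaled to the effective library size, was 168, 163 and 155 in the LN-521 wells and 147, 149 and 144 in the LN-521+LN-221 wells. All 3 LN-521+LN-221 libraries were below all 3 LN-521 libraries. The means were 162 ± 6.18 and 147 ± 2.48 (SD, n = 3), a log2 fold change of -0.15 ± 0.05 (SE), with an adjusted p of 0.196 in edgeR. The deposited TPM of IGF1R showed a larger gap between the groups: 27.7, 24.6 and 22.4 in the LN-521 wells and 18.5, 18.4 and 16.9 in the LN-521+LN-221 wells. On the log2(TPM + 1) scale the difference was -0.45, with a limma adjusted p of 0.247. Neither readout passed the threshold.

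Counts and TPM of a gene differ by the transcript length that the authors' quantification assigned to it. For IGF1R, counts per TPM, scaled by the median of each library and set relative to the LN-521 mean, were 1.02, 0.942 and 1.04 in the LN-521 wells and 1.31, 1.27 and 1.28 in the LN-521+LN-221 wells. The mean was 28.7% higher on LN-521+LN-221, and the groups did not overlap. Its size was the 67th of 12532 genes compared, of which 1.68% moved by 20% or more in either direction. IGFBP6 differed by 12.6% with overlapping groups, and each of the other 8 genes by at most 2.35%. This ratio was examined after the values had been seen, it carries no test, and the deposited gene tables do not show which IGF1R transcripts it reflects.

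INSR encodes the insulin receptor, which forms hybrids with the IGF1 receptor (chr19:7112255-7294034, minus strand). It was at 144, 158 and 136 CPM in the LN-521 wells and at 155, 154 and 162 CPM in the LN-521+LN-221 wells. The second LN-521 library lay inside the LN-521+LN-221 range, so the groups overlapped in CPM. The log2 fold change was 0.10 ± 0.06 (SE, adjusted p = 0.467 in edgeR). It was 0.17 without LN-521 replicate 2 (edgeR adjusted p = 0.0845) and 0.055 without LN-521 replicate 3 (0.824). In TPM the groups were apart, at 16.1, 16.5 and 14.3 against 17.2, 18.1 and 17.3.

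IGF2R encodes the cation-independent mannose 6-phosphate receptor, which binds IGF2 and carries it to lysosomes without a kinase of its own (chr6:159969099-160113507, plus strand). Its CPM was 174, 179 and 180 in the LN-521 wells and 187, 203 and 208 in the LN-521+LN-221 wells. The groups did not overlap in CPM, but the first LN-521 library, at 14.9 TPM, exceeded 2 of the LN-521+LN-221 libraries in TPM (14.8, 16.8 and 14.8). The log2 fold change was 0.17 ± 0.06 (SE), with an adjusted p of 0.143 in edgeR. After a correction for GC content, chosen after seeing the data, it was 0.18, and edgeR's adjusted p was 0.00852. That correction also raised the share of all genes called to 5.27%.

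The ratios between the receptor genes are given per transcript length (TPM) and in counts, which are not corrected for length, without a test. In TPM, IGF1R per INSR was 1.72, 1.49 and 1.56 in the LN-521 wells and 1.07, 1.02 and 0.980 in the LN-521+LN-221 wells. IGF2R per IGF1R in TPM was 0.537, 0.490 and 0.570 in the LN-521 wells and 0.799, 0.913 and 0.873 in the LN-521+LN-221 wells. By TPM, IGF2R was thus below IGF1R in every library. IGF1R counts per INSR count were 1.16, 1.03 and 1.14 in the LN-521 wells and 0.950, 0.963 and 0.888 in the LN-521+LN-221 wells. IGF2R counts per IGF1R count were 1.04, 1.10 and 1.16 in the LN-521 wells and 1.27, 1.37 and 1.45 in the LN-521+LN-221 wells. IGF2R was above IGF1R in counts in every library, so the order of these 2 genes depends on the unit. For both ratios and in both units the 3 values of one coating were all outside the range of the other, and the size of the gap differed between the units.

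**Figure D2:**
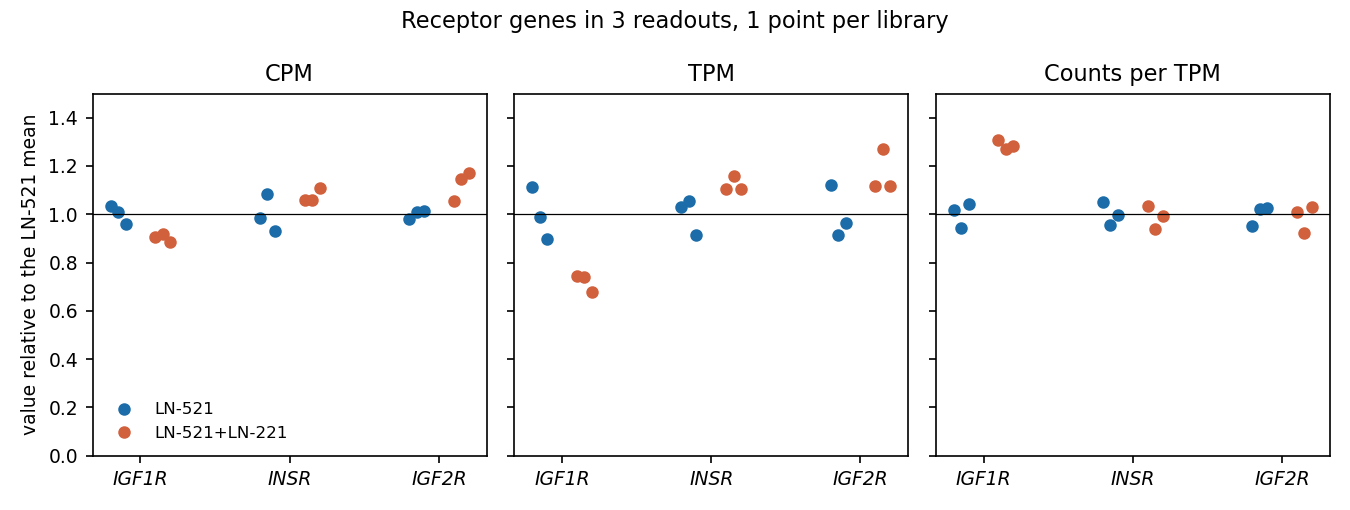
The 3 receptor genes in CPM, in TPM and in counts per TPM, each value divided by the LN-521 mean of that gene, with 1 point per library (blue, LN-521; orange, LN-521+LN-221). In counts per TPM the IGF1R points of LN-521+LN-221 lie between 1.27 and 1.31, while those of INSR and IGF2R overlap the LN-521 points.

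The adaptors IRS1 and IRS2 are the substrates that link both kinases to phosphoinositide 3-kinase. IRS1 (chr2:226731317-226799759, minus strand) was at 38.4, 40.8 and 37.2 CPM in the LN-521 wells and at 35.8, 34.8 and 36.2 CPM in the LN-521+LN-221 wells. The 3 LN-521+LN-221 libraries were lower in CPM, with a log2 fold change of -0.13 ± 0.07 (SE, adjusted p = 0.434 in edgeR). The groups overlapped in TPM, where the IRS1 difference was -0.037 on the log2(TPM + 1) scale in limma. IRS2 (chr13:109752698-109786568, minus strand) was at 27.7, 32.6 and 25.6 CPM in the LN-521 wells and at 32.4, 27.04 and 29.4 CPM in the LN-521+LN-221 wells. These ranges overlapped almost fully, with a log2 fold change of 0.05 ± 0.09 (SE, adjusted p = 0.877 in edgeR). IRS1 counts per IRS2 count lay between 1.10 and 1.45 over the 6 libraries, and the groups overlapped.

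IGFBP2 encodes a secreted protein that binds IGF1 and IGF2 and also has an RGD motif. The gene supplied between 96.6% and 97.2% of the summed TPM of the 5 binding protein genes in each library. It was at 1007, 1113 and 1066 CPM in the LN-521 wells and at 888, 938 and 912 CPM in the LN-521+LN-221 wells. Every LN-521+LN-221 library was below every LN-521 library. The counts behind these values ran from 18446 to 29593. The means were 1062 ± 52.7 and 913 ± 24.8 CPM (SD, n = 3), and the log2 fold change was -0.22 ± 0.05 (SE, adjusted p = 0.0277 in edgeR). In TPM the groups were also apart, narrowly, at 1041, 929.8 and 983 against 914, 917 and 825. The IGFBP2 call was lost when any of 4 libraries was left out: LN-521 replicate 3 (log2 fold change -0.22, edgeR adjusted p = 0.134), LN-521+LN-221 replicate 1 (-0.20, 0.186), replicate 2 (-0.24, 0.132) or replicate 3 (-0.22, 0.134). Over all genes, those 4 fits called 201, 290, 198 and 194 genes in turn, against 446 with all libraries. The IGFBP2 call was also lost with limma on log2(TPM + 1), where the difference was -0.15 (adjusted p = 0.777). That limma fit called 0.229% of all genes.

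IGFBP2 (chr2:216632828-216664436, plus strand) and IGFBP5 (chr2:216672105-216695525, minus strand) lie tail to tail, 7668 bases apart with no annotated gene wholly between them. IGFBP2 was lower and IGFBP5 higher in every LN-521+LN-221 library by CPM, and only the first passed the test. The sequences before their start sites are shown because these neighbours have unlike levels, 260-fold apart in TPM. Both are RefSeq promoter windows of GRCh38.p14 without bases of an annotated exon, read 5′ to 3′ on the strand of the gene. RefSeq gives 3 start windows for IGFBP2 and 1 for IGFBP5. The IGFBP2 window nearest to the start of the GENCODE transcript IGFBP2-201 was taken, and the other 2 were not examined. This window (chr2:216633170-216633394, plus strand) ends directly before the first exon of that transcript and lies inside the gene, after the first exon of another. The IGFBP5 window is chr2:216695550-216695799, minus strand. Capitals mark GGGCGG, the core of a GC box, in IGFBP2 and TATTTAA, a sequence like a TATA box, in IGFBP5:
IGFBP2: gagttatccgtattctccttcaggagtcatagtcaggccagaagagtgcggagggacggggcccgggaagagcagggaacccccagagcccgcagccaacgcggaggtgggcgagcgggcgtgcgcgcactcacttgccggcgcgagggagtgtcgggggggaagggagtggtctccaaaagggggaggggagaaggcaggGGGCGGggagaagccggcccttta
IGFBP5: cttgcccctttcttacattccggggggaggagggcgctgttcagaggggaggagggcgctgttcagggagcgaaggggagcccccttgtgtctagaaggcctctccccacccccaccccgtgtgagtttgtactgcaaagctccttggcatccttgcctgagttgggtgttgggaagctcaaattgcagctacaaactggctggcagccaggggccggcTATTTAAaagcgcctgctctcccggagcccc
The IGFBP2 window had 67.6% GC and 18 CpG in 225 bases, above the medians of 57.8% and 9 over 35116 RefSeq windows of that length. Its GGGCGG begins 24 bases before the window's end, and GGGCGG on either strand was present in 39.5% of those windows. The IGFBP5 window had 61.2% GC and 8 CpG in 250 bases, against medians of 58.0% and 11. Its TATTTAA begins 31 bases before the window's end. TATTTAA, which was chosen after the sequence had been seen, was present on either strand in 4.17% of windows of that length. TATAAA, present in 10.7% of them, and GGGCGG, in 42.6%, were not found in the IGFBP5 window on either strand. These matches describe the letters and say nothing about binding.

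IGFBP5 encodes a binding protein that attaches to extracellular matrix. It was at 26.1, 26.3 and 23.6 CPM in the LN-521 wells and at 29.3, 26.8 and 28.9 CPM in the LN-521+LN-221 wells. The LN-521+LN-221 libraries were higher in CPM by a narrow margin and overlapped LN-521 in TPM. The log2 fold change was 0.16 ± 0.08 (SE, adjusted p = 0.367 in edgeR).

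IGFBP6, a binding protein with a preference for IGF2, had the largest fold change of the 10 genes and the fewest counts, 75 to 179 per library (chr12:53097436-53102345, plus strand). It was at 5.31, 6.73 and 5.70 CPM in the LN-521 wells and at 3.61, 5.20 and 3.80 CPM in the LN-521+LN-221 wells. The groups were apart by the small gap between 5.31 and 5.20, and they overlapped in TPM. The log2 fold change of -0.49 ± 0.16 (SE) had an adjusted p of 0.142 in edgeR. Its coefficient of variation among wells was 12.4% on LN-521 and 20.7% on LN-521+LN-221, against 4.96% and 2.71% for IGFBP2.

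IGFBP3 and IGFBP4 overlapped between the coatings in CPM and in TPM. IGFBP3, the main carrier of IGF in blood (chr7:45912245-45921874, minus strand), was at 30.4, 21.1 and 22.7 CPM in the LN-521 wells and at 24.5, 27.1 and 25.3 CPM in the LN-521+LN-221 wells. The first LN-521 library was the highest of all 6, and the coefficient of variation was 20.1% on LN-521 against 5.27% on LN-521+LN-221. The log2 fold change was 0.06 ± 0.11 (SE, adjusted p = 0.871 in edgeR). IGFBP4, a binding protein cleaved by pappalysin (chr17:40443461-40457731, plus strand), was at 20.6, 24.6 and 24.5 CPM against 21.0, 23.4 and 25.7 CPM, with a log2 fold change of 0.01 ± 0.09 (SE, adjusted p = 0.981 in edgeR). A p that misses the threshold does not show that these levels were the same.

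**Figure D3:**
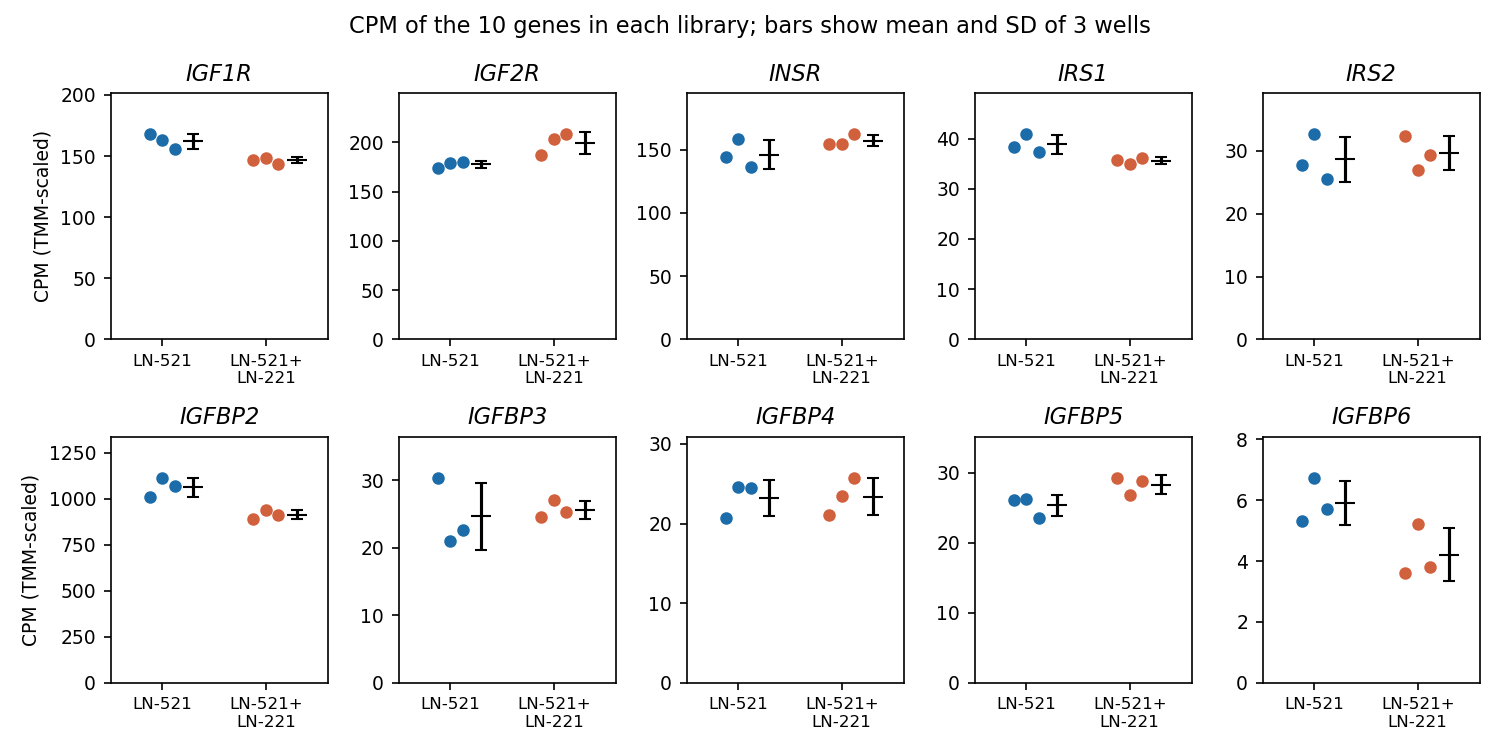
CPM of each of the 10 genes in each library, on linear axes that start at 0, with bars for the mean and SD of 3 wells. The groups are apart for IGF1R, IGF2R, IRS1, IGFBP2, IGFBP5 and IGFBP6 and overlap for INSR, IRS2, IGFBP3 and IGFBP4.

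In all, 6 of the 10 genes had CPM ranges that were apart between the coatings, against 19.9% of all genes tested. The TPM did not overlap for 3 of the 10 (IGF1R, INSR and IGFBP2), against 12.8% of all genes. IGF1R and IGFBP2 were apart in both, and lower on LN-521+LN-221 in both. All 10 genes had whole-number counts in every library. IRS2 and IGFBP5 each share exonic bases with 1 antisense gene, AL162497.1 and AC007563.2, which had 0 to 2 counts per library, and the other 8 overlap no annotated exon of another gene.

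The other genes of the pathway were read from 8 lists with 62 genes, of which 55 passed the filter. Of these, 3 were higher and 1 was lower by edgeR's adjusted p, against 2.53% of all genes in either direction. The 55 genes had a median log2 fold change of 0.012, and 12 of them (21.8%) had CPM ranges that were apart.

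Transcripts of the ligands were scarce. IGF2 was tested, with 15 to 38 counts per library and 0.28 TPM on average, and it had a log2 fold change of 0.14 ± 0.33 (SE, adjusted p = 0.901 in edgeR). Its counts were not whole in 5 libraries, and it shares exonic bases with other annotated genes, so its value is uncertain. IGF1 had 1 to 6 counts and INS 0 to 1, and neither passed the filter. A count of 0 allows up to 3 counts, or 0.112 to 0.146 CPM by library, for counting error only. The exons of IGF1 overlap those of the antisense transcript HELLPAR by 6693 bases, and HELLPAR had 323 to 446 counts. Whether counting used the strand is not given in the sources used here.

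Among the other binding proteins, IGFBP1, IGFBP7 and IGFALS had at most 7 counts in any library. IGFBP1 neighbours IGFBP3 on chromosome 7, 18576 bases away, and had 0 to 1 counts. IGFBPL1, an IGFBP-like gene, was at 27.7, 26.5 and 27.2 CPM in the LN-521 wells and at 30.0, 32.9 and 31.5 CPM in the LN-521+LN-221 wells. The groups did not overlap, and the log2 fold change was 0.22 ± 0.07 (SE, adjusted p = 0.160 in edgeR). The GC correction gave 0.28 (edgeR, adjusted p = 0.0255).

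The genes that control cleavage of binding proteins held 1 gene that rose and 1 that fell. Of all genes, 1.40% were higher and 1.14% lower by the same rule. PAPPA encodes pappalysin-1, the metalloprotease that cuts IGFBP4 and so frees IGF. It was at 2.27, 3.68 and 1.81 CPM in the LN-521 wells and at 4.82, 5.83 and 5.41 CPM in the LN-521+LN-221 wells. All 3 LN-521+LN-221 libraries were above LN-521, and PAPPA rose 2.06-fold (log2 fold change 1.04 ± 0.21 SE, adjusted p = 0.00983 in edgeR). PAPPA transcripts were scarce, with 45 to 130 counts per library, 0.365 TPM on average and at most 0.86 TPM. STC1 encodes stanniocalcin-1, a secreted glycoprotein that inhibits pappalysins. It was at 147, 135 and 159 CPM in the LN-521 wells and at 114, 103 and 94.7 CPM in the LN-521+LN-221 wells. The groups did not overlap in CPM but overlapped in TPM. STC1 fell, with a log2 fold change of -0.50 ± 0.07 (SE, adjusted p = 5.56e-04 in edgeR). Per 100 STC1 counts there were 1.54, 2.73 and 1.14 PAPPA counts in the LN-521 wells and 4.23, 5.65 and 5.71 in the LN-521+LN-221 wells. This ratio was not planned and carries no test. It joins the gene that rose and the gene that fell, so its gap follows from those calls.

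STC1 passed the threshold in edgeR with each of the 6 libraries left out in turn. Its call was lost with limma on TPM, where the STC1 difference was -0.44 on the log2(TPM + 1) scale (adjusted p = 0.429) and -0.45 on the log2(TPM + 0.1) scale (adjusted p = 0.494). Those fits called 0.229% and 0.111% of all genes. The PAPPA call was lost without LN-521 replicate 3 (log2 fold change 0.83, edgeR adjusted p = 0.0755), LN-521+LN-221 replicate 2 (0.98, 0.0819) or replicate 3 (1.03, 0.0593). It was also lost with limma on log2(TPM + 1) without a filter, where the PAPPA difference was 0.37 (adjusted p = 0.696). That fit called 1 of 36252 genes. PAPPA shares 2450 exonic bases with the antisense gene PAPPA-AS1, which had 3 to 11 counts. The other 3 genes of this list of 5 (PAPPA2, HTRA1 and STC2) did not pass the test, and the PAPPA substrate IGFBP4 had the values given above.

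Among the kinase pathway genes, 2 rose, while 1.40% of all genes were higher by the same rule. PIK3R3, a regulatory subunit of phosphoinositide 3-kinase, was 1 of 24 genes tested of the PI3K-AKT-mTOR list, and the other 23 did not pass. It was at 30.5, 25.5 and 27.1 CPM in the LN-521 wells and at 36.1, 35.9 and 37.4 CPM in the LN-521+LN-221 wells. All LN-521+LN-221 libraries were higher, with a log2 fold change of 0.40 ± 0.08 (SE, adjusted p = 0.00842 in edgeR). The call was lost without LN-521 replicate 3 (0.38, adjusted p = 0.0738) or LN-521+LN-221 replicate 3 (0.38, 0.0652). It was also lost with limma on log2(TPM + 1), where the PIK3R3 difference was 0.39 (adjusted p = 0.519). That fit called 0.229% of all genes. The PIK3R3 counts were not whole in any of the 6 libraries. The gene also shares exons with AL358075.4 on the same strand, so its value is uncertain.

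SESN3 encodes sestrin 3, a FOXO target that restrains mTOR complex 1, and it was 1 of 5 genes tested of the FOXO list. It was at 722, 556 and 535 CPM in the LN-521 wells and at 888, 863 and 851 CPM in the LN-521+LN-221 wells. The first LN-521 library was the highest of its group and still below all LN-521+LN-221 libraries. The log2 fold change was 0.52 ± 0.10 (SE, adjusted p = 0.0393 in edgeR). The SESN3 call was lost with library size alone as the scaling (0.51, adjusted p = 0.0756). It was also lost without LN-521 replicate 2 (0.47, 0.229) or LN-521+LN-221 replicate 1 (0.51, 0.101), replicate 2 (0.53, 0.0798) or replicate 3 (0.53, 0.155). With limma on log2(TPM + 1), the SESN3 difference was 0.59 (adjusted p = 0.372). That fit called 0.229% of all genes.

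No call was made in the 3 other lists by edgeR's adjusted p. Of 12 receptor and adaptor genes tested, the smallest adjusted p was that of IRS4, a further insulin receptor substrate, with a log2 fold change of -0.23 ± 0.10 (SE, adjusted p = 0.296 in edgeR). Of 4 genes for sorting by mannose 6-phosphate, the function that IGF2R serves, GNPTAB had the smallest, with -0.11 ± 0.05 (SE, adjusted p = 0.340 in edgeR). Of 3 genes for proteins that bind IGF2 mRNA, IGF2BP2 had the smallest, with 0.05 ± 0.05 (SE, adjusted p = 0.754 in edgeR). On the log2(TPM + 1) scale in limma the difference was -0.14 for IRS4 and -0.066 for GNPTAB, and without LN-521+LN-221 replicate 3 the edgeR value of IGF2BP2 was 0.015. An unadjusted p under 0.05 was obtained for 1 of the 12, 1 of the 4 and 0 of the 3, against 14.5% of all genes.

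**Figure D4:**
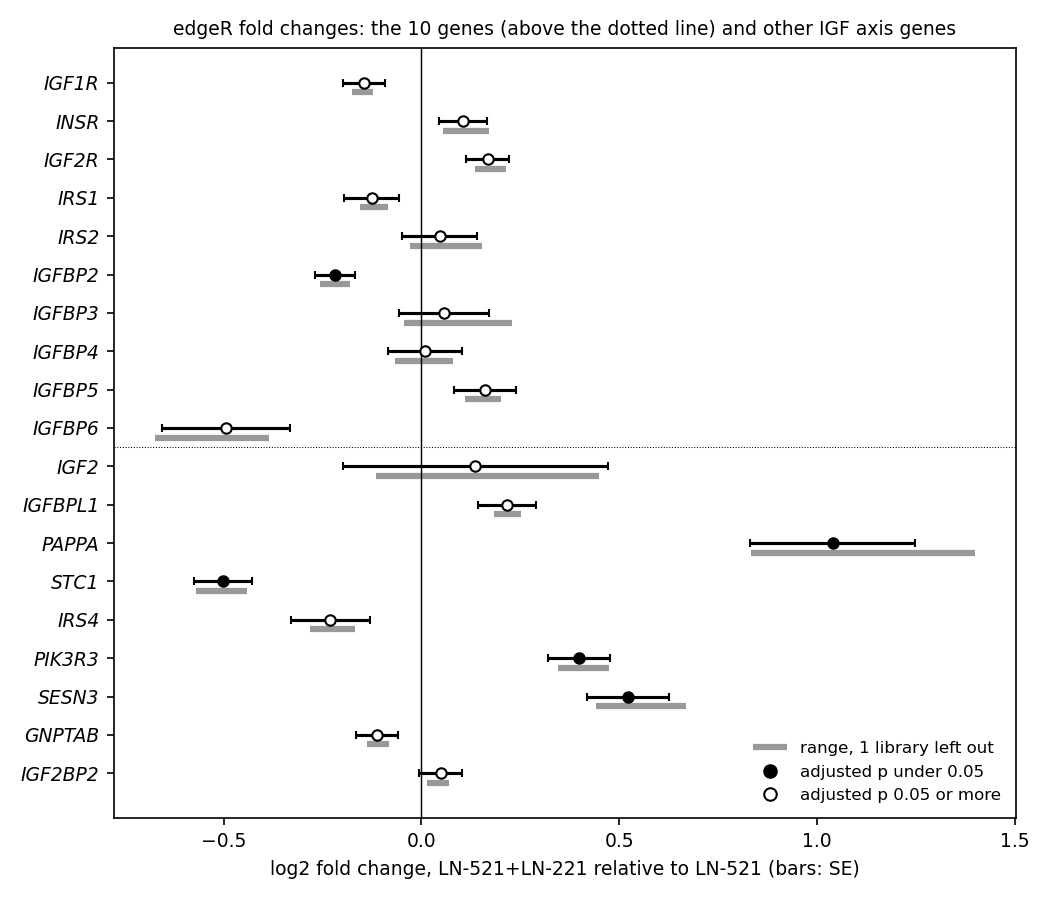
Log2 fold changes from edgeR (above 0, higher with laminin-221 added) for the 10 genes and 9 other genes of the pathway, with black bars for the SE and grey bars for the range when 1 library is left out. Filled points passed an adjusted p of 0.05: IGFBP2 and STC1 lie below 0, and PAPPA, PIK3R3 and SESN3 above.

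Of the markers of other cell types, 10 were tested and 1 passed, DCX, while 2.53% of all genes passed. On LN-521 and LN-521+LN-221 in turn, the 7 fibroblast markers summed to 79.3 to 93.0 and 83.2 to 99.1 TPM, with 3 of them at 1 TPM or more in every library and LUM at 0. The 6 trophoblast markers summed to 11.5 to 14.1 and 11.2 to 12.7 TPM, with 1 at 1 TPM or more in every library. The 6 endoderm and liver markers summed to 1.15 to 2.35 and 0.75 to 1.96 TPM, with TTR at 0, and the 6 cardiac markers to 1.37 to 2.64 and 1.66 to 2.13 TPM, and none of these 12 was at 1 TPM or more in every library. The 5 neural markers summed to 96.4 to 106 and 111 to 113 TPM without overlap, with 1 of them, TUBB3, at 1 TPM or more in every library and 3 under 1 TPM in all. TUBB3, a tubulin gene, made up 94.6 to 112 TPM of that sum, overlapped in CPM and did not pass the test (log2 fold change 0.10, edgeR adjusted p = 0.496). DCX was lower on LN-521+LN-221 (log2 fold change -0.43, edgeR adjusted p = 0.0492). The part of the neural sum in the results above was not tested.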

How the data were processed

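RNA was sequenced from 6 wells of H1 cells, 3 per coating, with a stranded total RNA kit and 150 bp paired reads, per the labels' protocols. The submitters' processing notes name cutadapt, STAR 2.5.2b, RSEM 1.2.31 and the build hg38. The annotation is not given in the sources used here. The authors deposited estimated counts per gene (6.08% to 6.67% of values per library are not whole) and a table of TPM.

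Counts were rounded, filtered with filterByExpr (minimum count 10), scaled by TMM and tested with edgeR 4.0.16 (robust quasi-likelihood fit, R 4.3.3). P-values were adjusted by Benjamini-Hochberg over 17608 genes. SE is the absolute log2 fold change divided by the square root of F. Positions and exon overlaps came from GENCODE 29, which held 93.8% of the gene identifiers. A symbol other than the identifier itself was found for 68.0%. Scripts were tested on simulated data.

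The genes and lists were chosen with earlier results of these data known. Named are the 10 genes, the 3 ligands and, per list, each gene past the threshold or else that with the smallest adjusted p. Other genes were named after their values were seen. Alternatives were RLE or no scaling factors, other filters, removal of 7 genes holding 1% or more of the TPM, DESeq2 1.42.0, limma 3.58.1 on TPM or CPM, a replicate block, a lowess GC correction (span 0.3), other thresholds and leaving out each library.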

Additional observations from a re-analysis of the deposited data

How the results depend on the processing

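IGFBP2 was lower and had an adjusted p under 0.05 with every alternative that used all 6 libraries on counts, and its difference was -0.153 without a call in the 3 limma fits on TPM (log2(TPM + 1), log2(TPM + 0.1) and no filter). With 1 library left out it ranged from -0.256 to -0.182. IGF2R was past the threshold with the GC correction (0.182). The number of the 10 genes called was 0 in those 3 TPM fits and at a threshold of 0.01, 2 with the GC correction, and 0 to 1 with 1 library left out. The pathway lists had 0 calls in the TPM fits, and 1 to 5 with 1 library left out. Over all genes, calls numbered 718 without the filter, 33, 16 and 1 in the TPM fits, 928 with the GC correction, 221 at 0.01, 725 at 0.1, and 194 to 1179 with 1 library left out. Of the calls, 246 of 446 were higher, against 336 of 718 without the filter and 27 of 33 with log2(TPM + 1).

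Directions of genes near 0 turned. IGFBP4 was at -0.001 without the filter. With 1 library left out, IGFBP4 ranged from -0.068 to 0.08 (-0.067 without LN-521+LN-221 replicate 3), IGFBP3 from -0.043 to 0.23, IRS2 from -0.03 to 0.154 (-0.02 without LN-521+LN-221 replicate 1) and IGF2 from -0.115 to 0.45 (-0.067 without LN-521+LN-221 replicate 2). The causes were not tested. Among the 9 other named genes, 92 values over the settings with all libraries kept their direction and call, 11 lost the call and 1 gained it, and with 1 library left out 43 kept both, 9 lost the call and 2 reversed. The median log2 fold change over all genes lay between -0.007 and 0.039 in these settings. TPM rescaled without the 7 genes gave IGFBP2 1693, IGF1R 38.9, INSR 30.0, IGF2R 25.9, IGFBP3 18.9, IGFBP4 16.7, IGFBP6 10.8, IGFBP5 6.49, IRS1 5.79 and IRS2 5.29, the same order.

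The replicate numbers name wells, and same-numbered wells did not deviate together (correlations 0.047, -0.022 and 0.009). A fit with a replicate block called 646 genes, of which 442 were among the 446, and 1 of the 10 genes, IGFBP2 (-0.218). Counts per library were 15 to 38 for IGF2 and 75 to 179 for IGFBP6, and the effect of depth was not tested.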
